A study of Mus musculus with 6 samples.

Results

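The contacts described here are pairs of 5 kb stretches of chromatin that were listed as interacting in untreated P19 cells and were absent from the lists made 6 h and 48 h after all-trans retinoic acid (ATRA) was added. They were chosen by the deposited counts themselves, from 3,654,014 pairs of bins. Both bins lay on 1 autosome, at least 20 kb and under 1 Mb apart. Both untreated libraries held at least 2 times the lowest listed count of that distance, and all 4 later libraries held 0. The rule kept 9715 pairs, called members below, out of 1,290,986 pairs of that distance range listed in untreated cells. The rule used the counts of all 6 libraries, so the members' own counts, their positions and every difference from untreated cells are given as a description without a test.

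Inside the nucleus the DNA fibre folds into loops and domains, many of which are made by the ring-shaped cohesin complex, which extrudes DNA until it meets the boundary protein CTCF. Loops of this kind, and contacts between enhancers and promoters, can appear as single strong spots in a contact map. P19 is a mouse embryonal carcinoma line, a cell type that resembles the early embryo, and retinoic acid starts its differentiation towards neurons through nuclear receptors.

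Hi-C joins DNA ends that are close in crosslinked nuclei, and each read pair counts 1 junction. The samples were 2 libraries of untreated cells (T0), 2 of cells after 6 h in 1e-06 M ATRA (T6) and 2 of cells after 48 h in 1e-06 M ATRA (T48), all from P19 cells grown as a monolayer. No untreated cells of 6 h or 48 h belong to the series, so ATRA and time in culture cannot be told apart, and P19 is a single tumour line. The labels do not say whether replicates came from separate cultures, so p-values measure the spread between these libraries, which may be technical.

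Summed over all listed pairs, replicates 1 and 2 held 50,156,906 and 29,646,984 read pairs at T0, then 40,564,358 and 23,005,786 at T6, then 43,501,843 and 29,556,754 at T48. Within each replicate number the T6 library was the smallest, and replicate 1 was larger than replicate 2 at every time. A count was either above 0 in both libraries of a time point or 0 in both, so a 0 says that a pair was not listed at that time and is no measured absence of contact. The lowest listed count fell with distance and was the same on every autosome. At 20 kb it was 22 and 13 at T0, then 20 and 12 at T6, then 20 and 14 at T48. A pair with fewer read pairs than this was listed on no autosome, so contacts below the limit also stand as 0. Counts were not corrected for the coverage of a bin.

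Most members were modest contacts that only just reached the threshold. Of the 9715, 5281 (54.36%) had exactly 2 times the lowest listed count in the weaker T0 library, 385 (3.963%) had at least 3 times, 19 had at least 4 times and 1 had 5 times. The median member held 12 read pairs in T0 replicate 1 and 9 in T0 replicate 2, with ranges of 6 to 88 and 6 to 248. Strong T0 pairs that were listed at all 3 time points had medians of 23 and 14, but they also lay closer together, and counts fall with distance. As multiples of the lowest listed count of their distance, the medians in T0 replicates 1 and 2 were 2.3 and 2.25 for members. For the pairs that stayed listed they were 2.857 and 2.625, a smaller gap. The word strong therefore describes a place above the detection limit of the list, and the members were weaker than the strong contacts that stayed listed. In absolute counts the members of 20 to 50 kb had medians of 35 and 22 read pairs, and those of 500 kb to 1 Mb had medians of 8 and 7.

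The share of contacts missing from both later lists was lower at higher strength before treatment. Of all 67,059 pairs that passed the T0 part of the rule, 9715 were listed only at T0 (14.49%, exact binomial 95% interval 14.22 to 14.76, which like all intervals here covers counting error only). A further 41,568 (61.99%) were listed at all 3 time points, 9429 (14.06%) again only at T6 and 6347 (9.465%) again only at T48. Between 2 and 2.5 times the lowest listed count, 19.47% were members, 8333 of 42,807 pairs. Between 3 and 4 times it was 4.406%, 366 of 8306. From 5 times upwards 1 of 2111 pairs was a member, while 97.82% were listed at all 3 times.

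**Figure D1:**
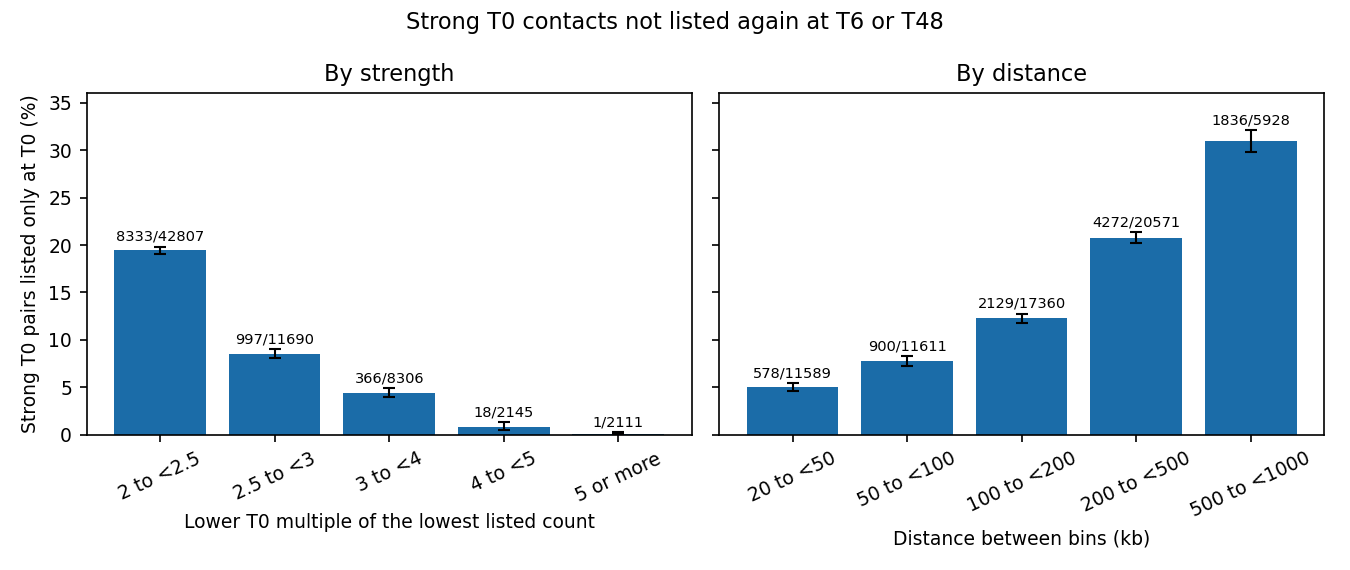
Percentage of strong T0 pairs listed at no later time (y axis, bars from 0) by the lower of the 2 T0 multiples of the lowest listed count (left) and by distance in kb (right); error bars are exact binomial 95% intervals and the labels give members over strong T0 pairs. The share falls with strength, to 1 of 2111 pairs at 5 times or more, and grows with distance, to 30.97% from 500 kb.

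The share of contacts missing from both later lists was higher at long distances. The members lay a median of 275 kb apart, against 125 kb for strong T0 pairs listed at all 3 times and 140 kb for all pairs listed at T0. Of the strong T0 pairs of 20 to 50 kb, 4.987% were members (95% interval 4.598 to 5.4), and of those from 500 kb to 1 Mb, 30.97% were (29.8 to 32.17). Long contacts rest on fewer read pairs, with lowest listed counts of 3 and 3 in the T0 libraries at 825 kb, and the part of the low counts in this trend was not tested.

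The same selection made at a later time gave a smaller set at T6 and a larger set at T48. Pairs strong at T6 and listed at no other time numbered 7257 of 52,635 (13.79%), with a median distance of 285 kb. Pairs strong at T48 and listed at no other time numbered 12,203 of 58,096 (21%), with a median distance of 365 kb. The share listed only at T0 thus lay close to the corresponding share of T6 and below that of T48. The lists hold 1 call per time point, so no replicate error can be given for the differences between these shares.

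The strongest member joined the bins chr2:127650001-127655000 and chr2:128475001-128480000 (build mm9, as are all positions here), 825 kb apart, with 16 and 15 read pairs in the T0 libraries and 0 in the 4 later ones. Its counts were 5.333 and 5 times the lowest listed count of 3 in each T0 library. With exact Poisson 95% intervals of 9.145 to 25.98 and 8.395 to 24.74, even the strongest member was measured with few read pairs. Within 2 bins of both ends (10 kb), 11 other pairs were listed at T0, then 7 at T6 and 7 at T48, so the region around this contact stayed in the lists.

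The next by strength joined chr12:86715001-86720000 and chr12:86830001-86835000, 115 kb apart, with 36 and 24 read pairs at T0, and lowest listed counts of 7 and 5 at each of the 3 times. Its neighbourhood held 12 other pairs at T0, then 11 at T6 and 8 at T48. On distal chromosome 14, chr14:94415001-94420000 and chr14:94925001-94930000, 510 kb apart, held 19 and 15 read pairs at T0. That contact stood nearly alone, with 0 other listed pairs nearby at T0, then 1 at T6 and 0 at T48. A second contact of distal chromosome 14, between chr14:80710001-80715000 and chr14:81095001-81100000, held 18 and 17 read pairs at T0, with 4 other pairs nearby at T0, then 2 at T6 and 2 at T48. Among the strongest members of 200 to 500 kb, chr14:104545001-104550000 and chr14:104855001-104860000, 310 kb apart, held 30 and 12 at T0. In the same distance class, chr14:114145001-114150000 and chr14:114570001-114575000, 425 kb apart, held 16 and 16 at T0.

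On chromosome 19, chr19:46360001-46365000 and chr19:46530001-46535000, 170 kb apart, held 27 and 17 read pairs at T0. It was the only one of the 12 strongest with 0 listed pairs nearby at both T6 and T48, against 5 others at T0. The other chromosome 19 contact, between chr19:33625001-33630000 and chr19:33790001-33795000, held 31 and 18, with 1 other pair nearby at T0, then 2 at T6 and 1 at T48. Both were about 165 to 170 kb long, and they differed in whether later lists held anything nearby.

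Of the shorter members, chr1:153765001-153770000 and chr1:153790001-153795000, 25 kb apart, held 75 and 47 read pairs at T0, where the lowest listed counts were 18 and 11. The lowest counts that T6 and T48 listed at that distance were 17 and 10, and 17 and 12. The T0 counts thus lay far above the limits of the later lists. The pair was surrounded by 16 other listed pairs at T0, then 10 at T6 and 9 at T48. The contact between chr1:60255001-60260000 and chr1:60345001-60350000, 90 kb apart, held 39 and 25 at T0.

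On chromosome 2, chr2:29265001-29270000 and chr2:29420001-29425000, 155 kb apart, held 31 and 24 read pairs at T0, and 11, 5 and 4 pairs were listed nearby at T0, T6 and T48. Its right bin is 1 of the shared anchors described further on. The contact chr2:92185001-92190000 with chr2:92270001-92275000, 85 kb apart, held 41 and 23 at T0 and also ended in a shared anchor. The remaining contacts among the 12 strongest lay on chromosome 2 (750 kb apart, 13 and 16 read pairs at T0), chromosome 5 (530 kb, 17 and 13) and chromosome 4 (225 kb, 21 and 42). In the chromosome 4 contact, between chr4:143620001-143625000 and chr4:143845001-143850000, the smaller library held the higher count. No gene is named for any contact because no annotation of build mm9 was used here.

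**Figure D2:**
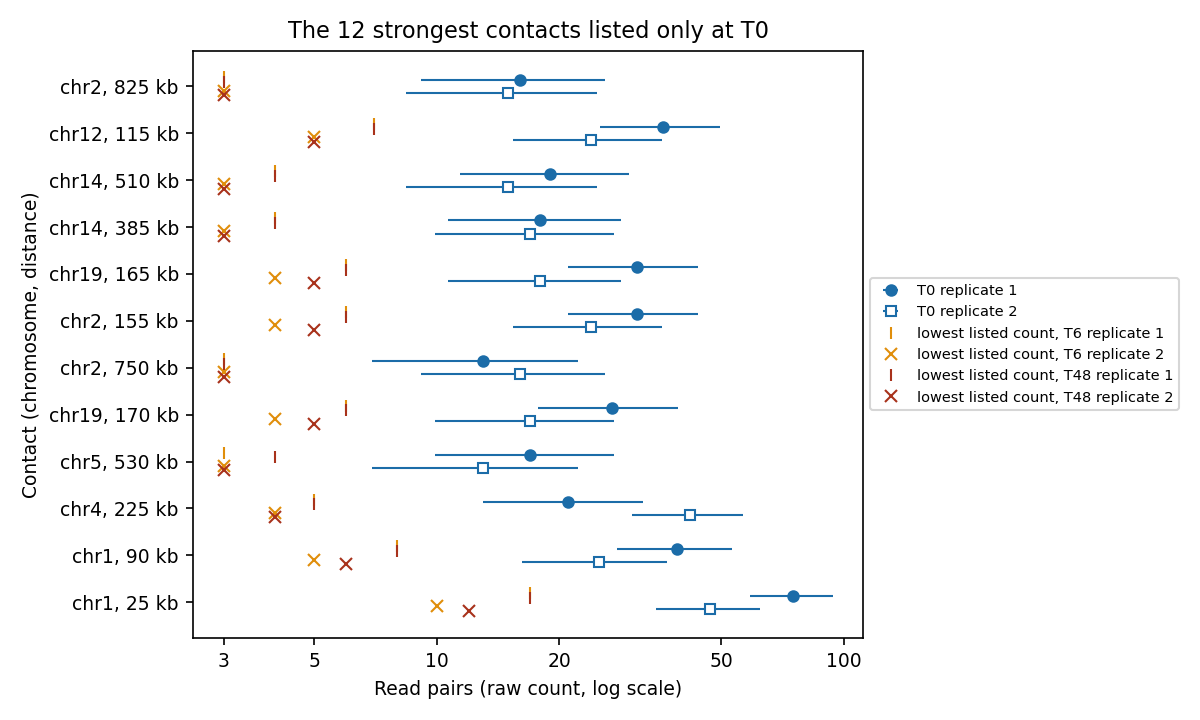
Raw read pairs (x axis, log scale) of the 12 strongest members, at most 1 per 500 kb, in T0 replicate 1 (filled) and T0 replicate 2 (open) with exact Poisson 95% intervals; the small marks give the lowest count listed at that distance in each T6 and T48 library, where all 12 stood at 0. The T0 counts range from 13 to 75, and every one lies above the lowest listed counts of the later libraries.

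The rule required both T0 libraries to reach the threshold, so pairs below it in 1 of them were left out. It set no upper limit, and the libraries could still differ widely on a member. The ratio of replicate 2 to replicate 1 had a median of 0.7143 in the members, against 0.6316 in strong T0 pairs listed at all 3 times and 0.5911 for the sums of listed counts. In 21 members replicate 2 held at least 3 times the count of replicate 1. The widest gap was on chromosome 17, in the bins centred on 13382500 and 13687500, with 10 and 159 read pairs in T0 replicates 1 and 2. The bins of chromosome 5 centred on 15017500 and 15202500 held 13 and 197, and those centred on 14962500 and 15022500 held 21 and 248. These 3 were chosen after their values were seen, and their high counts rest on 1 library. Such gaps made up 0.2162% of the members and 1.547% of the strong T0 pairs that stayed listed (643 pairs).

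At the threshold itself, members just inside it were the pair of chromosome 1 centred on 10827500 and 10952500, with 14 and 10 read pairs against lowest listed counts of 7 and 5, and 2 more of chromosome 1 with 10 and 6 and with 6 and 6. The pairs just outside it lay 20 kb apart on chromosomes 9, 4 and 14, with 43 and 45, 43 and 35, and 43 and 34 read pairs, or 1.955 times the lowest listed count of 22 in replicate 1. Only 299 pairs listed only at T0 lay between 1.9 and 2 times the lowest listed count, because low counts move in whole steps.

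Members were spread over all 19 autosomes, and chromosome 14 held more of them than its share of the list. It carried 1338 members (13.77%), against 5.193% of the listed T0 pairs and 6.272% of the strong ones. The excess lay in the distal part, from 70 Mb on, a boundary set after the counts were seen. There 1143 of 2728 strong T0 pairs were members (41.9%, 95% interval 40.04 to 43.78). Before 70 Mb on chromosome 14, 195 of 1478 were (13.19%, 11.51 to 15.03), and on the other autosomes 8377 of 62,853 (13.33%, 13.06 to 13.6). In steps of 5 Mb, the distal part held from 67 to 133 members in each, and the proximal part at most 26.

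The distal part of chromosome 14 stood apart in the same way at every time. Of its pairs strong at T6, 42.79% were listed at no other time, and of those strong at T48, 63.35%. Counts of neighbouring bins were also higher there than elsewhere. The median count of pairs 5 kb apart that were listed at all 3 times was 123 and 62 at T0, then 112 and 54 at T6, then 95 and 65 at T48. On the autosomes other than 14 these medians were 85 and 46 at T0, then 77 and 39 at T6, then 76 and 48 at T48. Copy number was not measured here, and the part of copy number or of this local excess of counts in the number of members was not tested. Without the distal 1143 members the set counted 8572.

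Chromosome 1 lay at the other end of the range. Of its 10,174 strong T0 pairs 751 were members (7.382%, 6.881 to 7.907), the lowest share of any autosome. It held 15.17% of all strong T0 pairs but 7.942% of the listed ones, so it had many strong contacts of which few were members. Its share was also the lowest of any autosome among pairs strong at T6 (5.675%) and at T48 (10.3%). The low share is therefore not particular to T0. On the autosomes other than 1 and 14 the share lay between 11.04% on chromosome 6 and 19.39% on chromosome 3. Off chromosome 14, the stretches of 1 Mb with most members were on chromosome 1, with 41 members of 242 strong T0 pairs from 133 Mb, and on chromosome 19, with 36 of 213 from 46 Mb.

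**Figure D3:**
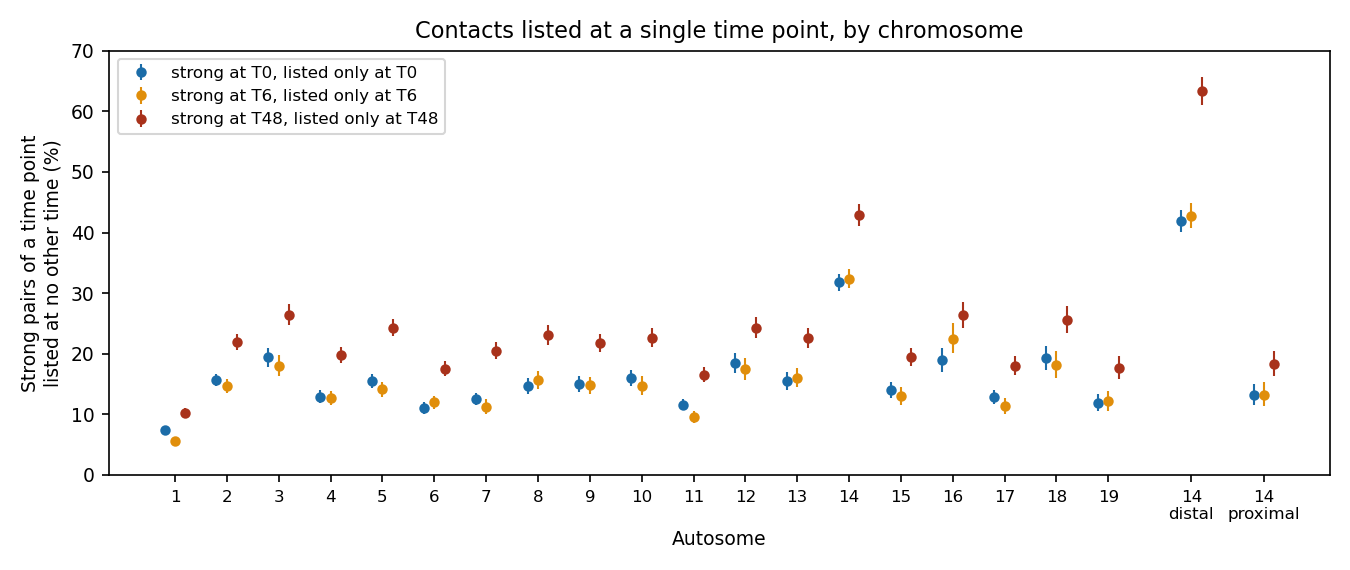
Percentage of the strong pairs of a time point that were listed at no other time (y axis), for each autosome and for chromosome 14 beyond (distal) and before (proximal) 70 Mb, at T0, T6 and T48, with exact binomial 95% intervals. Distal chromosome 14 stands at 41.9, 42.79 and 63.35%, and chromosome 1 has the lowest share of any autosome at every time, 7.382, 5.675 and 10.3%.

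For most members at least 1 pair near both ends was listed after treatment. Within 2 bins of both ends a T6 pair was listed for 73.54% of members and a T48 pair for 72.47%. At least 1 of these was present for 8201 members (84.42%, 83.68 to 85.13), both for 61.59%, and neither for 1514 (15.58%). An identical search at T0, leaving out the member itself, found another listed pair for 78.21%. For most members the pair itself was missing from the later lists while a pair within 10 kb of both its ends was listed. The same share was not computed for pairs of bins placed without regard to the members. Whether 84.42% exceeds what the general density of the lists gives therefore cannot be said.

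The members nevertheless lay in thinner surroundings than contacts that stayed listed. Strong T0 pairs listed at all 3 times had a T6 or T48 pair nearby in 99.57% of cases. In pairs of like strength (2 to 2.5 times) and distance (200 to 500 kb), the share was 82.86% of 3647 members, against 99.56% of 5693 pairs that stayed listed. Already at T0, 75.16% of these members had another listed pair nearby, against 99.19% of the pairs that stayed listed. The pairs that stayed listed were chosen for being listed at T6 and T48, and the members for being absent there. These gaps are therefore a description and no independent result. The sets selected at the other times resembled the members. Pairs strong only at T6 had a pair of another time nearby in 81.89% of cases, and pairs strong only at T48 in 74.78%. Members on distal chromosome 14 had a T6 or T48 pair nearby in 74.98% of cases, and members elsewhere in 85.67%.

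The density of listed pairs fell with the offset from a member at every time point. For the 7152 members of at least 150 kb, 16.03% of the pairs of bins offset by 5 kb were listed at T0, then 13.27% at T6 and 13.15% at T48. At an offset of 50 kb these shares were 5.138, 4.312 and 4.807%. All 3 lists were thus denser at the members than around them, including the lists in which the member itself was absent. Around the strong T0 pairs that stayed listed, the shares at 5 kb were 48.95, 46.4 and 47.83%, and around pairs strong only at T6 they were 13.73, 12.87 and 12.09%. The T0 list was also the longest in this distance range, with 1,290,986 pairs at T0, then 1,073,618 at T6 and 1,180,199 at T48. A T0 share above those of T6 and T48 is therefore not particular to the members.

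**Figure D4:**
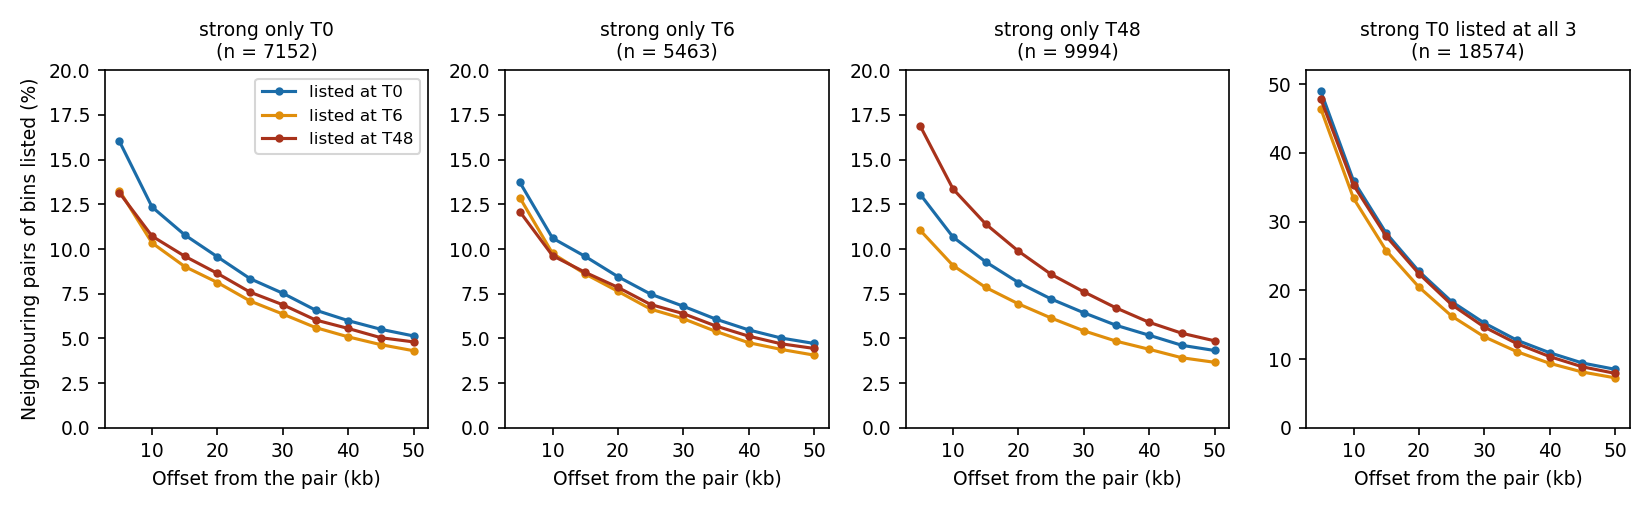
Percentage of pairs of bins listed at T0, T6 and T48 (y axis, wider scale in the last panel) by offset from a strong pair in kb (x axis), for members, for pairs strong only at T6, for pairs strong only at T48 and for strong T0 pairs listed at all 3 times, each at least 150 kb apart. All curves fall with offset. The T0 curve is highest around the members, and also around pairs strong only at T6 and around pairs that stayed listed.

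Members rarely came in patches. With both ends within 2 bins of another member's counted as touching, the 9715 members made up 9287 separate places. Of the members, 787 (8.101%) lay in 359 groups of 2 or more. The largest group had 6 members between chr2:27895001-27935000 and the single bin chr2:28250001-28255000, with 10 to 16 read pairs in T0 replicate 1 and 6 to 15 in T0 replicate 2. Next came 4 groups of 5 members each. They lay on chromosome 1 between chr1:153760001-153770000 and chr1:153785001-153805000, which includes the 25 kb contact above, on chromosome 1 between chr1:195045001-195050000 and chr1:195140001-195170000, on chromosome 3 between chr3:83745001-83770000 and chr3:84105001-84115000, and on chromosome 4 between chr4:141900001-141905000 and chr4:141920001-141955000. Members of 1 group share a region, and members of 1 anchor share a bin, so neither are independent observations.

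A small number of bins anchored many members each. The members used 16,876 bins, of which 15,052 (89.19%) anchored 1 member, 63 anchored at least 5 and 19 at least 10. The 63 bins touched 511 members (5.26%). Bins of this kind had far more listed contacts before treatment than after, with medians of 87 at T0, then 14 at T6 and 15 at T48 in those with at least 10 members. These listed contacts include the members, which by the rule were listed at T0 alone. The choice of bins thus fixed part of this excess at T0. Bins with 1 member had medians of 15, 12 and 13. Autosomal bins in general had 10, 9 and 9.

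The bin with most members, chr2:28250001-28255000, anchored 28, of which 27 reached to its left, at distances of 40 to 625 kb. It had 118 listed contacts at T0, then 21 at T6 and 20 at T48. To look beyond the members, counts were summed over the pairs of this bin that were listed at all 3 times. These 11 pairs held 1056 and 578 read pairs at T0, then 321 and 190 at T6, then 328 and 230 at T48. As CPM, relative to the read pairs of all such pairs, this was 36.41 and 34.76 at T0, then 12.25 and 13.38 at T6, then 13.03 and 13.58 at T48. Both T0 libraries stood above all 4 later ones, and the later ones lay close together, so contacts of this bin other than the members were also lower after treatment.

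The bin chr4:106850001-106855000 anchored 20 members, 10 on each side, and had 117, 12 and 12 listed contacts at T0, T6 and T48. Its pairs listed throughout held 22.07 and 24.6 CPM at T0, then 6.067 and 6.971 at T6, then 8.104 and 8.799 at T48. The bin chr5:36410001-36415000 anchored 18 members, 16 of them to its right. It had 89, 8 and 15 listed contacts, with 22.52 and 22.31 CPM at T0, then 8.013 and 7.535 at T6, then 8.024 and 7.618 at T48. In both bins the lowest T0 value lay far above the highest later one, and the T6 and T48 libraries lay close together.

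In the next pair of bins the T6 libraries disagreed. The bin chr11:55420001-55425000 anchored 16 members and had 87, 30 and 19 listed contacts. Its CPM was 22.65 and 20.93 at T0, then 8.013 and 23.1 at T6, then 8.302 and 9.271 at T48, so T6 replicate 1 stood at the level of T48 and T6 replicate 2 at that of T0. The bin chr2:29420001-29425000, with 13 members and 93, 31 and 29 listed contacts, held 30.79 and 33.08 CPM at T0, then 11.14 and 29.86 at T6, then 12.12 and 12.76 at T48. Among 7 further bins, chosen after their values were seen, T6 replicate 1 was the high one on chromosome 18, at chr18:38675001-38680000, with 20.45 and 11.06 CPM at T6 against 20.24 and 26.82 at T0. The same held on chromosome 1 at chr1:134035001-134040000, with 18.09 and 9.718 CPM at T6 and 21.03 and 23.15 at T0. The T6 list holds pairs found in both libraries of that time, and in these 4 bins the libraries differed. What sets the T6 libraries apart there was not tested, so the missing T6 contacts of these bins rest on libraries that disagree.

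**Figure D5:**
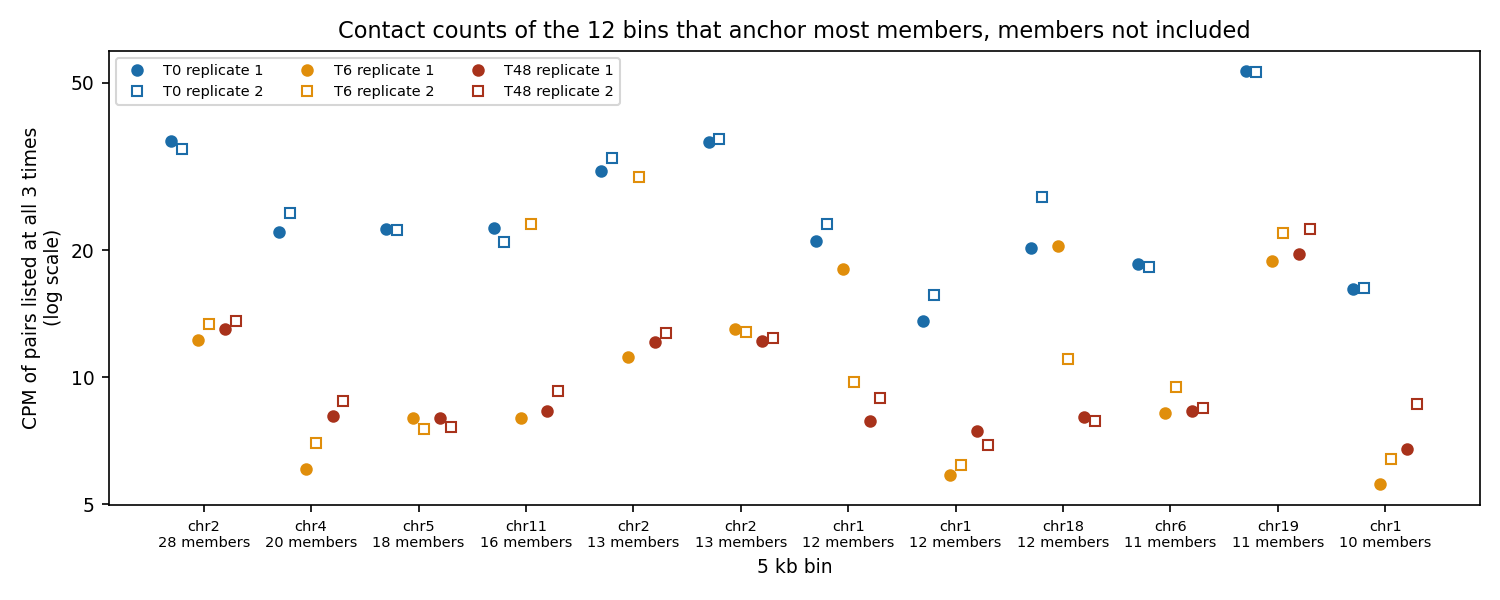
CPM of the pairs listed at all 3 time points (y axis, log scale; no member is among them) for the 12 bins that anchor most members (x axis, at most 1 bin per 500 kb; 5 by rule, 7 added after their values were seen), with 1 symbol per library. Both T0 libraries are high in all 12 bins, both T48 libraries are low, and in 4 bins 1 of the T6 libraries lies near the T0 values.

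Sums in neighbouring bins were lower as well, by amounts that differed between the 5 bins. A pair that joins such a bin to its neighbour counts in the sums of both. The part of shared pairs in the neighbours' decrease was not tested. Around chr2:28250001-28255000 the log2 ratios of T48 over T0 within replicates 1 and 2 were -1.48 and -1.36. They were -1.03 and -0.70 in the bin 5 kb to its left, -0.53 and -0.38 in the bin 5 kb to its right, and 0.06 and 0.24 in the bin 20 kb to its right. T6 over T0 gave -1.57 and -1.38 in the bin itself, -1 and -0.81 in the bin 5 kb to its left, and -0.64 and -0.55 in the bin 5 kb to its right. The bins on either side anchored 0 members. Around chr4:106850001-106855000 the decrease was about as large 5 kb to the left as in the bin itself. This left neighbour also anchored 2 members. There T6 over T0 was -1.72 and -1.77, from 1 pair listed throughout, against -1.86 and -1.82 in the bin itself, and T48 over T0 was -1.31 and -1.76, against -1.45 and -1.48. The bin 5 kb to its right had -1.34 and -1.27 for T6 over T0, from 2 pairs listed throughout. At chr11:55420001-55425000 the bin 5 kb to the right had -1.26 and -0.89 for T48 over T0, from 2 pairs listed throughout. The bin itself had -1.45 and -1.17. Among the bins with at least 5 members, 61 had at least 100 read pairs in T0 replicate 1. In 50 of these T0 replicate 1 held at least 2 times the CPM of the lowest library (81.97%), and T0 replicate 2 did in 51. Of bins with 1 member and as many read pairs, T0 replicate 1 did in 320 of 10,106 (3.166%), and of autosomal bins with no member in 5357 of 216,087 (2.479%). Of the 61 bins with at least 5 members, T6 replicate 1 did in 10 and T6 replicate 2 in 21. T48 replicate 1 did in 0 and T48 replicate 2 in 16, so the T48 libraries differed too. The bins were chosen by their members, and the rule used the T0 counts. Their excess at T0 over other bins is therefore a description and no independent result. Both T0 libraries and no other were high in 13 bins, both and exactly 1 T6 library in 27.

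Anchors with such a decrease made up a small part of the members. An anchor whose CPM was lower by more than 1 on the log2 scale, averaged over both later times and replicates, was found for 277 of 9587 members with a value (2.889%, 2.563 to 3.244). For strong T0 pairs listed at all 3 times it was 0.5605%. The 277 members came from 36 stretches of 500 kb, so they are far fewer independent places than pairs. Counts were not corrected for bin coverage, and changed coverage of a bin cannot be told apart from changed contacts.

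Whether contacts around the members went on changing between 6 h and 48 h was tested in pairs, 50 kb windows and 5 kb bins that were not used by the rule. All tests were fitted over every pair, window or bin listed at all 3 times, with edgeR's quasi-likelihood F test and Benjamini-Hochberg adjustment at 0.05. No member is among these pairs. In pairs that share a bin with a member, 0 of 53,608 were called, against a background of 0% of all 496,203 pairs. At an unadjusted p under 0.05 there were 4153 of these pairs (7.747%), against 25,105 of all pairs (5.059%). DESeq2 called 29 of the pairs that share a bin with a member (9 higher and 20 lower at T48), against 74 of all pairs (0.0149%). A replicate block in edgeR gave 0 of them, against 0.000202% of all pairs. The median log2 ratio of T48 over T6 was -0.03 in pairs that share a bin with a member and 0.00 in the rest.

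In windows of 50 kb that hold a member anchor, 4 of 12,484 changed between 6 h and 48 h, against a background of 0.0182% of 49,387 windows. Window CPM refers to the read pairs summed over windows. The window chr1:196500001-196550000 rose to 66.39 ± 1.28 CPM at T48, against 33.03 ± 0.08768 at T6 (SD, n = 2; log2 0.99, edgeR adjusted p = 0.0398), and stood at 33.19 ± 0.216 at T0. The other 3 fell. The window chr6:122300001-122350000 held 44.47 ± 1.685 CPM at T48 and 81.89 ± 1.213 at T6 (SD, n = 2; log2 -0.90, edgeR adjusted p = 0.0442). The windows chr1:54500001-54550000 and chr1:122500001-122550000 had log2 ratios of -0.78 and -0.74 (edgeR adjusted p = 0.0488 for both). These windows were already known from an earlier look at the same libraries, and their calls are no independent support.

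The 4 windows held few members. The member of the window that rose joined the bins centred on 196507500 and 196717500, with 12 and 8 read pairs at T0, and it was absent from the T48 list although the window's counts were higher then. The window of chromosome 6 held 2 members, with 20 and 32 read pairs as the lower and higher count in T0 replicate 1, and that of chromosome 1 from 122500001 held 7, with 6 to 14. Fits without 1 of the 6 libraries gave 0 edgeR calls among windows, whichever was left out, at a lowest adjusted p of 0.0867 to 0.397. DESeq2 called 43 of the windows that hold a member anchor, 3 higher and 40 lower, against 0.168% of all windows. A replicate block gave 82 such windows in edgeR, 4 higher and 78 lower, against 0.391% of all windows.

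At the scale of single bins, 4 of 15,231 member anchors changed between 6 h and 48 h, against a background of 0.00418% of 310,746 bins. This test was added after the shared anchors had been seen. All 4 lay on chromosome 1, and 3 of them fell. The neighbouring bins chr1:122535001-122540000 and chr1:122540001-122545000 held 3.608 ± 0.07482 and 4.133 ± 0.08233 CPM at T48, against 12.76 ± 0.02541 and 12.38 ± 0.03051 at T6 (SD, n = 2; log2 -1.84 and -1.60). At T0 they stood at 13.47 ± 0.5608 and 13.34 ± 0.1413. They anchored 4 and 2 members, which had left the lists at T6 while the counts of the bins were still at the T0 level. The bin chr1:54500001-54505000 fell to 3.569 ± 0.1207 CPM at T48, against 10.65 ± 0.6183 at T6 (log2 -1.59). The edgeR adjusted p was 0.0467 for each of the 4 bins.

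The fourth bin rose. At chr1:179600001-179605000 the pairs listed throughout held 744 and 504 read pairs at T48 and 260 and 150 at T6, with 664 and 367 at T0. That was 14.83 ± 0.07303 CPM at T48 and 5.121 ± 0.2268 at T6 (SD, n = 2; log2 1.52, edgeR adjusted p = 0.0467), and 11.24 ± 0.2918 at T0. The counts were thus low at 6 h alone, and the difference between T48 and T6 was larger than the spread of the replicates. Its single member, 405 kb long with 9 and 6 read pairs at T0, was not listed at T48 even though the bin's counts stood above those of T0 then. Fits without 1 of the 6 libraries gave 0 edgeR calls among bins, at a lowest adjusted p of 0.0931 to 0.376, and DESeq2 called 33 of the member anchors, 3 higher and 30 lower, against 0.0479% of all bins. A replicate block gave 32 in edgeR, 3 higher and 29 lower, against 0.0428% of all bins.

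The 5 bins that anchor most members did not pass this test. The log2 ratio of T48 over T6 was 0.04 at chr2:28250001-28255000, 0.37 at chr4:106850001-106855000 and -0.01 at chr5:36410001-36415000. It was -0.80 at chr11:55420001-55425000 and -0.72 at chr2:29420001-29425000, the bins in which the T6 libraries disagreed. The edgeR adjusted p lay between 0.913 and 1 in the 5 bins. In the first 3 the values of T48 lay within 0.37 of those of T6 on the log2 scale, and in the other two the spread between the T6 libraries was larger than the difference.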

How the data were processed

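Hi-C read pairs were counted in 6 libraries of P19 cells, 2 each at T0, T6 and T48, grouped and numbered by their titles. The authors deposited 1 table of pairs of 5 kb bins with raw counts per library, per the file headers. CASAVA 1.8.2, Bowtie2 and genome build mm9 are named in the submitters' processing notes. Not given in the sources used here were the enzyme, the caller, its threshold and any coverage correction. Listed counts summed to between 23,005,786 and 50,156,906 per library, which is not the sequencing depth.

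From these counts, the lowest count above 0 was found for each library and distance over all autosomes. Members were selected against it, and their strength is the lower of the 2 T0 multiples. The members, lists and rules were chosen with earlier results of these data known. The named contacts were the 12 strongest members, then the 4 strongest of each of 4 distance classes, at most 1 per 500 kb. The 5 largest groups of touching members, the 5 bins with most members and the 3 pairs on each side of the threshold were also named. A pair counted as near where both its ends lay within 2 bins. Planned gene lists were not used, because no annotation of build mm9 was used here.

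Counts of the 542,645 pairs listed at all 3 times were tested for T48 over T6 as pairs, as sums per 50 kb window and, added after the data were seen, per 5 kb bin. Pairs within 1 window were counted once there. edgeR 4.0.16 in R 4.3.3 was run with TMM, filterByExpr and the quasi-likelihood F test, two-sided, in 1 fit of all 6 libraries. The alternatives were DESeq2 1.42.0, DESeq2 size factors, no filter, the replicate number as a block, and fits without each library in turn. The fits were tested on simulated data. Per-bin CPM is relative to the sum over these pairs. Read pairs carry no molecular identifiers, so binomial (Clopper-Pearson) and Poisson intervals cover counting error only. The table held 4 pairs on the mitochondrial chromosome, which were left out of all tests.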

Additional observations from a re-analysis of the deposited data

Results flagged for a closer look

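Outside the autosomes and the distance range of the members, contacts listed only at T0 were present too. On chromosome X, 2251 of 7413 pairs that reached 2 times the lowest autosomal count in both T0 libraries were listed only at T0 (30.37%, exact binomial 95% interval 29.32 to 31.43), against 14.49% on the autosomes. Among autosomal pairs of 1 Mb or more, 356 of 2417 were listed only at T0 (14.73%, 13.34 to 16.21).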

How the results depend on the processing

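The number of members depended on the threshold and on requiring both T0 libraries. It was 56084 at 1.5 times the lowest listed count and 385 at 3 times, and with the rule applied to 1 T0 library it was 51404 to 69084. Requiring that no T6 or T48 pair be listed within 1 or 2 bins left 3004 and 1514. The share of members with a listed T6 or T48 pair nearby was 69.08% within 1 bin and 95.08% within 4, and the share next to another member 4.231% and 16.49%. In the T48 over T6 tests around members, DESeq2 called 29 pairs (0.0541%), 43 windows (0.344%) and 33 bins (0.217%). Of all pairs, windows and bins it called 0.0149, 0.168 and 0.0479%. edgeR called 0 pairs, 4 windows (0.032%) and 4 bins (0.0263%) around members, against 0, 0.0182 and 0.00418% of all. The edgeR calls did not hold when any 1 library was left out. Such a fit leaves 1 library in a group and has less power, and the cause was not tested. With the replicate block edgeR called 82 windows (0.657%), 32 bins (0.21%) and 0 pairs around members. Of all windows and bins it called 0.391 and 0.0428%. Differences between replicates correlated at 0.3827 between T0 and T6, 0.3264 between T0 and T48 and 0.323 between T6 and T48, but 2 numbers do not show that the libraries were paired. Of the recomputed values, 20 stayed within the limits set for a like value and 27 did not. Members rest on few read pairs, a median of 12 and 9 in the T0 libraries, which limits what a later 0 can show.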
